A study of Mus musculus with 16 samples.

Results

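The genes described here are the protein-coding neighbours of Trp53 on mouse chromosome 11. They were chosen by position alone: gene start between 69000000 and 71000000 on GRCm38, with Trp53 itself, Wrap53, which lies head to head with Trp53 on the opposite strand, and Zbtb4 left out by name. Of 110 protein-coding genes annotated in this window, 2 had no row in the deposited files and 3 were the genes left out, which leaves 105 of the 41214 genes in the files. Each library holds the RNA of a leukaemia of the T cell lineage (T-ALL) from 1 mouse, and 16 mice were sequenced, 2 in each of 8 groups.

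All mice are labelled C57Bl6. In 6 groups the leukaemia was induced with ICN, the intracellular and constantly active part of the Notch receptor, and in the other 2 groups there was no ICN. The ICN p53-ko groups carried Miz1 wt, deltaPOZ with the title suffix Lck, or deltaPOZ with the title suffix Vav (6 mice). The no-ICN p53-ko groups carried Miz1 wt or deltaPOZ with the suffix Vav (4 mice). The ICN p53-wt groups carried the same 3 Miz1 states as the ICN p53-ko groups (6 mice). DeltaPOZ is a form of the transcription factor Miz1 without its POZ domain, and the labels do not explain the suffixes. Every no-ICN mouse was p53 ko, so p53 status can be compared only among ICN leukaemias. The sources used here do not say which p53-ko allele was used, in which embryonic stem cell strain it was made, how often it was backcrossed, or the sex and age of the mice.

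A targeted allele is usually made in embryonic stem cells and then crossed into another strain. Recombination near the targeted gene is rare, so a stretch of the donor strain's chromosome travels with the allele, and genes in that stretch can differ in sequence between knockout and wild-type mice whether or not the deleted gene acts on them. The window around Trp53 is gene dense and holds translation factors, lipoxygenases, lectins of myeloid cells and a proteasome subunit side by side, so its members share a position and no common pathway.

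Gene counts per library were 36463524 to 68523196 (median 50171983), and the Spearman correlation between the 2 mice of a group was 0.941 to 0.984 over genes. Trp53 had 14.0 to 30.6 counts scaled to library size (CPM) in ICN p53-ko, 7.32 to 21.8 CPM in no-ICN p53-ko and 70.2 to 113 CPM in ICN p53-wt libraries, which fits the labels in all 16. All 10 T cell markers were above 0 in every library, with a summed level of 3326 to 5135 CPM in ICN p53-ko, 4653 to 6770 CPM in no-ICN p53-ko and 3736 to 4982 CPM in ICN p53-wt leukaemias. Of the 105 members, 87 (82.9%) passed the filter on low counts, against 14206 of 21292 other protein-coding genes (66.7%). The 18 that did not pass were at most 0.275 CPM in any library and had at most 83 counts over all 16. They include the sperm genes Spem1, Spem2 and Tmem95, the skin lipoxygenase Alox12b, the hepatic lectins Asgr1 and Asgr2, Shbg, the carrier of sex steroids in blood, and Hes7, a clock gene of the developing somites.

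Sequences of genes named in the results below are shown first. Whether the promoter sequences bear on the levels of these genes was not tested. Ybx2 is the member with an adjusted p under 0.05 for p53 status, and Psmb6 is the other member whose 10 p53-ko libraries did not overlap the 6 p53-wt libraries. Their promoters (250 bases before to 50 after the RefSeq start, GRCm38.p6, plus strand) are chr11:69935649-69935948 and chr11:70525107-70525406. Capitals mark matches on either strand to CCAAT (also read as ATTGG) or GGGCGG (also read as CCGCCC).
Ybx2 promoter: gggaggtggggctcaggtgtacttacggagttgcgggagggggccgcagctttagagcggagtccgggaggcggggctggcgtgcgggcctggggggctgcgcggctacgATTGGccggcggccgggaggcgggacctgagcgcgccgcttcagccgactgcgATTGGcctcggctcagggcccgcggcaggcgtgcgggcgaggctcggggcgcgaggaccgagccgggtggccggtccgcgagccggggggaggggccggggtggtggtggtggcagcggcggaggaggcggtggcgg
Psmb6 promoter: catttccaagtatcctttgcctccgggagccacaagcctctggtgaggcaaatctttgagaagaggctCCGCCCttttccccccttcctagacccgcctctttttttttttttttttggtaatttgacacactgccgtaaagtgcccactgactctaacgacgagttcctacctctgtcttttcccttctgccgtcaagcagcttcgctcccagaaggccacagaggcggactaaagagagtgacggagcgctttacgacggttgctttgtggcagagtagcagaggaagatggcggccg
The Ybx2 promoter is 78.0% G or C with 40 CpG and 2 CCAAT matches, and that of Psmb6 is 52.7% G or C with 15 CpG and 1 GGGCGG match. Neither holds TATAAA or the p53 half-site consensus. Among the 73 member promoters in the RefSeq table the p53 half-site was found in 12.3%, CCAAT in 41.1%, TATAAA in 6.85% and GGGCGG in 56.2%. Among all 27025 promoters of this length in the table the shares were 8.37% for the p53 half-site, 37.9% for CCAAT, 14.2% for TATAAA and 35.9% for GGGCGG. The median G and C content was 57.7% for the member promoters and 52.7% for all.

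The second pair is Eif5a, a translation elongation factor gene of the window (chr11:69916714-69921958, minus strand), and Eif5al3-ps, a processed pseudogene on another chromosome (chr5:90132229-90132675, plus strand). Coding bases 31 to 330 of the 465 of Eif5a are set against the matching bases of the copy, both from GENCODE M21 transcripts on GRCm38, with capitals at the bases that differ.
Eif5a: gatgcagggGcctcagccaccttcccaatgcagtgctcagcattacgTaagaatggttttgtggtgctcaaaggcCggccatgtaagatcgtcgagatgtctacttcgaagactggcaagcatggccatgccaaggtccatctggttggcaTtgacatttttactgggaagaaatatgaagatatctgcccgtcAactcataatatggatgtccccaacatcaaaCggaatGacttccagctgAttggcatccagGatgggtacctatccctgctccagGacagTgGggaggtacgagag
Eif5al3-ps: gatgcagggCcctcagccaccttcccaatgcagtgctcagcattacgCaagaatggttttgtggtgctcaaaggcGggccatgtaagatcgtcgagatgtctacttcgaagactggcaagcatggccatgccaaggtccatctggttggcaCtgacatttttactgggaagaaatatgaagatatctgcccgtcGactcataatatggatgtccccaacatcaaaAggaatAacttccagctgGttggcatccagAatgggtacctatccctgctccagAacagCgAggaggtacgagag
The 2 sequences aligned without a gap over 434 bases at 97.2% identity. All 12 substitutions lie in the stretch shown: counted from 1 at the first coding base, with the Eif5a base first, they are G40C, T78C, C106G, T182C, A225G, C256A, G262A, A274G, G286A, G310A, T315C and G317A.

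Few genes of the window differed by p53 status. In edgeR's quasi-likelihood test, ICN p53-ko leukaemias were set against ICN p53-wt leukaemias, averaged over the 3 Miz1 states. Of the 87 tested members 1 (1.15%) passed an adjusted p of 0.05, and the background was 34 of 17470 genes (0.195%). That member, Ybx2, was lower, against a background of 0.0744% of genes called lower. At an unadjusted p under 0.05 the members gave 14 of 87 (16.1%), against 15.5% of all genes. Of these 14, 10 were higher (background 8.65%) and 4 were lower (background 6.83%). The median log2 change was 0.06 over the members and 0.00 over all genes, the median size of the change regardless of sign was 0.25 against 0.27, and 73.6% of members against 70.4% of all genes lay within 0.5 on the log2 scale. The changes had the same sign in the 3 Miz1 states for 41 members (47.1%), against 46.4% of all genes. By the unadjusted counts, the medians and the signs the tested members lay near the rest of the genome. At an adjusted p under 0.05 their share lay above the background, by edgeR on 1 member. The calls depend on the tool. DESeq2 called 8 of 82 members (9.76%, background 6.6%), Ybx2, 2810408A11Rik, Cd68, Cxcl16, Clec10a, Mgl2, Rnf167 and Arrb2. With the ICN libraries alone edgeR called 2 of 85 (2.35%, background 0.887%), Ybx2 and Cd68.

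**Figure D1:**
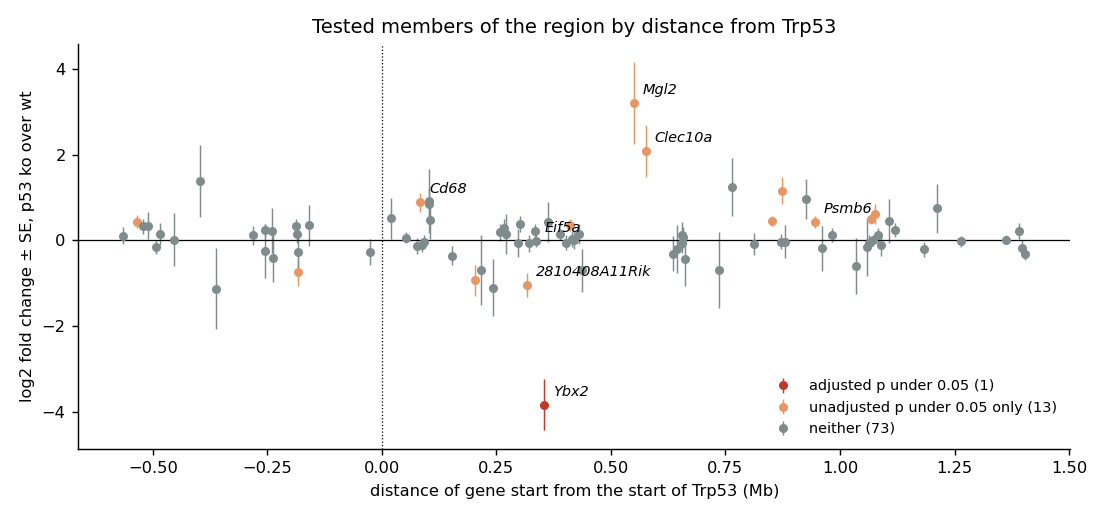
Each point is 1 of the 87 tested members, placed by the distance of its gene start from that of Trp53 in Mb (x axis) against its log2 fold change between ICN p53-ko and ICN p53-wt leukaemias (y axis, bars ± SE). Most points lie near 0 at every distance, and Ybx2, at 0.355 Mb and -3.84, is the 1 member with an adjusted p under 0.05.

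The count did not climb towards Trp53. Of the 7 tested members within 0.1 Mb of it, 1 had an unadjusted p under 0.05 (14.3%), of the 40 at 0.1 to 0.5 Mb 5 had one (12.5%), of the 23 at 0.5 to 1 Mb 6 (26.1%) and of the 17 farther away 2 (11.8%). The 3 nearest tested members on each side were Kdm6b, Dnah2 and Efnb3, then Atp1b2, Fxr2 and Mpdu1. Efnb3, an ephrin ligand, began 0.026 Mb from Trp53 and had 1.06 to 3.0 CPM in ICN p53-ko and 1.49 to 2.87 CPM in ICN p53-wt leukaemias (log2 change -0.27, SE 0.31). Atp1b2, a sodium pump subunit, began 0.019 Mb away on the other side and had 5.40 to 18.9 CPM in ICN p53-ko and 3.86 to 16.7 CPM in ICN p53-wt leukaemias (log2 change 0.51, SE 0.48). Fxr2, an RNA-binding protein, had a log2 change of 0.06 (SE 0.13) and Mpdu1, of the dolichol sugar pathway, one of -0.13 (SE 0.19). The groups overlapped for each of these genes. The excluded neighbours also overlapped between the ICN groups and missed the threshold: Wrap53 had a log2 change of 0.21 (SE 0.15, edgeR adjusted p 0.529) and Zbtb4 of -0.37 (SE 0.30, adjusted p 0.594). Within each of the 3 Miz1 states the p53-ko libraries lay above the p53-wt libraries for Wrap53, and its exact permutation test is given below.

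At the limits of the window, Ctc1, just inside 69000000, had a log2 change of 0.11 (SE 0.19) and Pfas, just outside, one of 0.02 (SE 0.20). Dhx33, just inside 71000000, had -0.31 (SE 0.16) and Derl2, just outside, 0.12 (SE 0.15). The share of tested protein-coding genes with an unadjusted p under 0.05 was 17.6% in the 2 Mb before the window (17 genes), 12.5% in the 2 Mb after it (24 genes), 13.6% over the rest of chromosome 11 and 15.7% on the other chromosomes. Among 41 windows of 2 Mb with at least 10 tested genes the share ran from 0 to 37.5%. After rounding, 10 windows lay above the 16.1% of the members. The windows at 99 to 101 Mb and 105 to 107 Mb, with 5 of 31 genes each, also rounded to 16.1%.

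**Figure D2:**
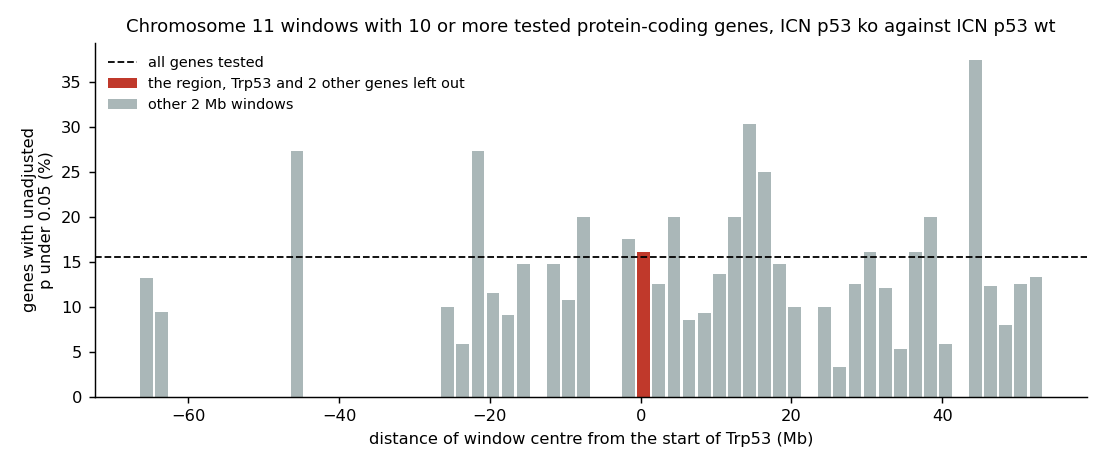
Each bar is a 2 Mb window of chromosome 11 with at least 10 tested protein-coding genes, placed by the distance of its centre from the start of Trp53 in Mb (x axis), and its height is the percentage of genes with an unadjusted p under 0.05 between ICN p53-ko and ICN p53-wt leukaemias (y axis). The window of the members stands at 16.1%, close to the dashed line at 15.5% for all genes, and 10 windows stand higher after rounding.

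Ybx2, a Y-box protein that binds mRNA in germ cells, was nearly absent from every p53-ko library. It had 0.028, 0.119, 0.203, 0.0404, 0.0909 and 0.0418 CPM in the ICN p53-ko libraries (1 to 9 counts each, 25 in all), and 0.0751, 0.0574, 0.0458 and 0.278 CPM in the no-ICN p53-ko libraries (25 counts in all). It had 1.44, 0.696, 1.87, 0.813, 1.81 and 0.938 CPM in the ICN p53-wt libraries (36 to 95 counts each, 393 in all). All 10 p53-ko libraries lay below all 6 p53-wt libraries, with or without ICN. The log2 change between ICN p53-ko and ICN p53-wt was -3.84 (SE 0.60, 14.3-fold lower, edgeR adjusted p 0.0384), and it was -3.75 in Miz1 wt, -3.46 in Lck and -4.31 in Vav leukaemias (SE 1.04, 1.01 and 1.06). The adjusted p stayed under 0.05 in 3 of the 16 fits that left out 1 library, without no-ICN Vav p53-ko replicate 1 or 2 or ICN Miz1-wt p53-ko replicate 2, and passed 0.05 in the other 13, while the log2 change stayed between -4.36 and -3.59. With 25 counts in 6 libraries, the level in ICN p53-ko leukaemias rests on few reads.

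The tested genes next to Ybx2, picked after its values were seen, did not show this pattern. Eif5a, the member just before Ybx2 (0.336 Mb from Trp53), overlapped between the ICN groups, and its values are given below. A little farther off, 2810408A11Rik (0.317 Mb from Trp53) was lower in ICN p53-ko leukaemias without overlap and is also described below. Slc2a4, the insulin-responsive glucose transporter, had 6.95 to 44.4 CPM in ICN p53-ko and 6.83 to 33.3 CPM in ICN p53-wt leukaemias (log2 change 0.42, SE 0.47). Gps2, a subunit of nuclear corepressor complexes, had 40.4 to 61.6 CPM in ICN p53-ko and 39.8 to 45.4 CPM in ICN p53-wt leukaemias (log2 change 0.22, SE 0.15). Cldn7, a tight junction protein, was at most 0.162 CPM in any library and was not tested, so it cannot show or lack the pattern.

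Separated groups were about as common in the window as elsewhere. The 6 ICN p53-ko libraries did not overlap the 6 ICN p53-wt libraries for 3 members (3.45%), against a background of 2.6% of genes. They were Psmb6, higher, and Ybx2 and 2810408A11Rik, lower. With the no-ICN p53-ko libraries added, the 10 p53-ko and 6 p53-wt libraries did not overlap for Psmb6 and Ybx2, against a background of 1.45%. In an exact two-sided permutation test of p53 status within Miz1 state on log2 CPM (216 arrangements, smallest possible p 0.00926), 6 members reached the smallest p (6.9%), against 6.13% of all genes, and the lowest adjusted p over all genes was 0.151. These 6 were Aurkb, Chrnb1, 2810408A11Rik, Ybx2, Arrb2 and Psmb6. Wrap53, which was left out of the members by name, also reached the smallest p, with higher levels in p53 ko.

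Psmb6, a catalytic subunit of the proteasome, had 177, 210, 263, 183, 231 and 267 CPM in the ICN p53-ko libraries and 219, 324, 207 and 285 CPM in the no-ICN p53-ko libraries. It had 165, 173, 150, 164, 171 and 167 CPM in the ICN p53-wt libraries. The lowest p53-ko library stood just above the highest p53-wt library, and the log2 change of 0.42 (SE 0.14) did not pass the test (edgeR adjusted p 0.194).

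The uncharacterised gene 2810408A11Rik, 0.317 Mb from Trp53, had 2.86 to 4.40 CPM in ICN p53-ko and 5.64 to 14.0 CPM in ICN p53-wt leukaemias. Its log2 change was -1.05 (SE 0.28, edgeR adjusted p 0.123, DESeq2 adjusted p 0.00562). Without the count filter edgeR gave -1.06 (SE 0.35, adjusted p 0.0473). The no-ICN p53-ko libraries, at 5.76 to 14.4 CPM, overlapped the ICN p53-wt libraries and lay above all of the other p53-ko libraries. Between ICN and no ICN among p53-ko leukaemias it was called lower (log2 change -1.26, SE 0.34, adjusted p 0.0212).

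**Figure D3:**
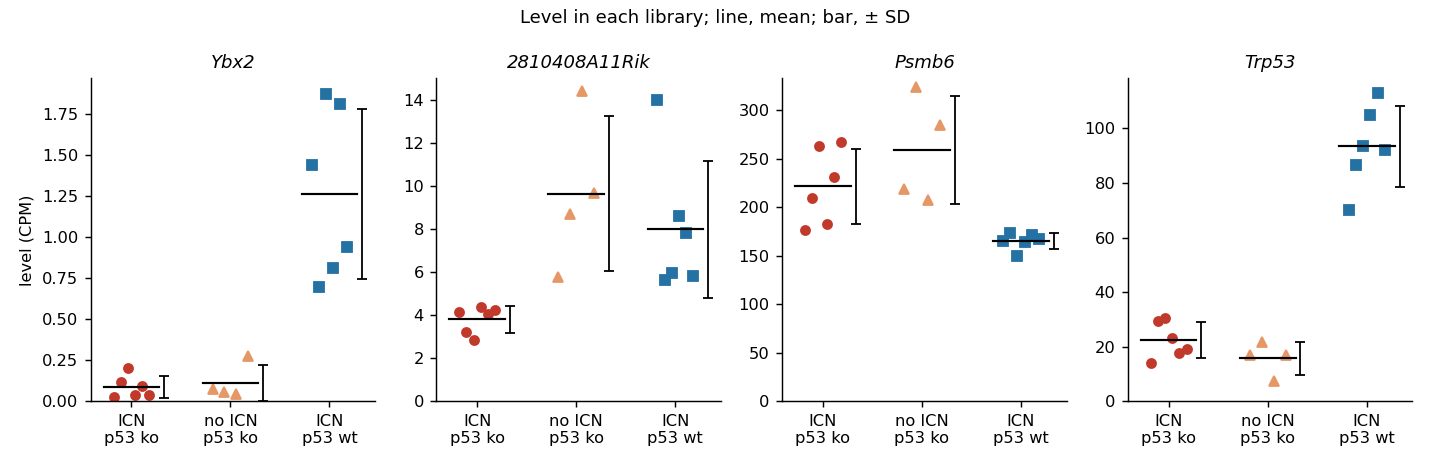
Level in CPM (y axes, from 0) of Ybx2, 2810408A11Rik, Psmb6 and the targeted gene Trp53 in each library, with ICN p53 ko, no ICN p53 ko and ICN p53 wt from left to right, a line at the mean and a bar of ± SD (n = 6, 4 and 6). Ybx2 and Trp53 are lower in all 10 p53-ko libraries, Psmb6 is higher in all 10, and 2810408A11Rik is low in the 6 ICN p53-ko libraries.

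No translation member passed the test, and a processed copy of one of them did. Of 6 tested members of the translation list, none was called and none had an unadjusted p under 0.05. Eif5a had 467, 621, 778, 519, 663 and 751 CPM in ICN p53-ko and 563, 542, 563, 694, 836 and 639 CPM in ICN p53-wt libraries, which overlapped (log2 change -0.01, SE 0.14). Its copy Eif5al3-ps had 5.42, 8.93, 7.43, 6.10, 10.3 and 11.2 CPM in the ICN p53-ko libraries (2377 counts) and 13.0 to 16 CPM in the no-ICN p53-ko libraries (3058 counts). It had 0.233, 0.256, 0.158, 0.271, 0.306 and 0.273 CPM in the ICN p53-wt libraries (78 counts). The lowest p53-ko library was thus at 5.42 CPM and the highest p53-wt library at 0.306 CPM. The log2 change between ICN p53-ko and ICN p53-wt was 5.01 (SE 0.25, edgeR adjusted p 6.43e-06), the lowest adjusted p of all 17470 genes, and it was 4.86 in Miz1 wt, 4.97 in Lck and 5.20 in Vav leukaemias (SE 0.43, 0.44 and 0.44). It stayed at 4.85 to 5.14 in the 16 fits that left out 1 library, with an adjusted p of 1.22e-05 to 0.000344.

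The copy took 0.947% to 1.52% of the counts of Eif5a and Eif5al3-ps together in ICN p53-ko libraries and 1.66% to 2.00% in no-ICN p53-ko libraries, against 0.028% to 0.0473% in ICN p53-wt libraries. Both rows together came to 473 to 785 CPM in ICN p53-ko, 682 to 800 CPM in no-ICN p53-ko and 542 to 836 CPM in ICN p53-wt leukaemias. Counts per gene do not show whether a read over such a pair came from the copy on chromosome 5 or from Eif5a in the window. The deposited tables hold no base calls, so the sequence of Eif5a in the p53-ko mice was not tested. The copy is not one of the 105 members, and the pair was picked after its values were seen.

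Copies of the other members were then looked up in the same way. Of 1166 tested pseudogene rows, 956 had a protein-coding transcript as closest match at 90% identity or more over at least 50% of their length, and for 3 of them it was a member's. Eif4a-ps4 on chromosome 1 matched Eif4a1, the RNA helicase of translation initiation, at 99.9%, and Gm6580 on chromosome 14 matched Senp3, a SUMO protease of the nucleolus, at 96.2%. Eif4a-ps4 had 14.4 to 33 CPM in ICN p53-ko and 21.6 to 32.9 CPM in ICN p53-wt leukaemias (log2 change -0.15, SE 0.18). Gm6580 had 0.14 to 0.292 CPM in ICN p53-ko and 0.154 to 0.275 CPM in ICN p53-wt leukaemias (log2 change 0.08, SE 0.34). Of the 3 copies Eif5al3-ps was called, and of the 956 matched pseudogenes 4 (0.418%) were.

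**Figure D4:**
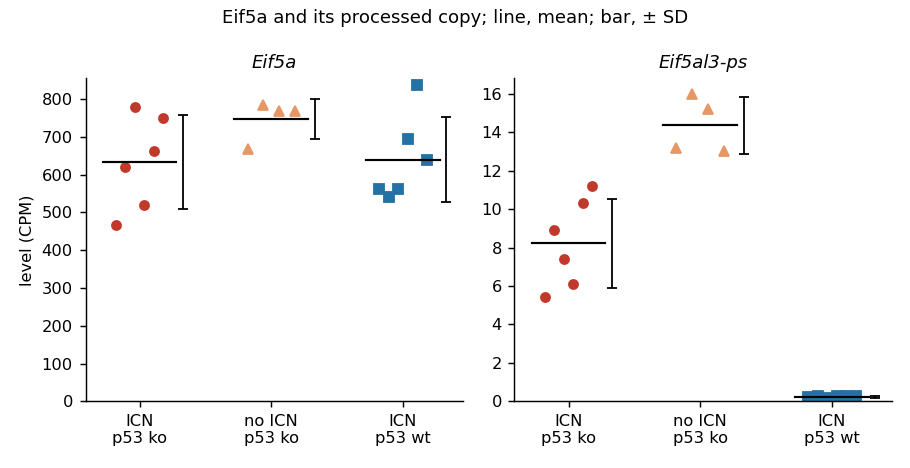
Level in CPM (y axes, from 0, different scales) of Eif5a and of its processed copy Eif5al3-ps in each library, with ICN p53 ko, no ICN p53 ko and ICN p53 wt from left to right, a line at the mean and a bar of ± SD (n = 6, 4 and 6). The groups overlap for Eif5a, and for the copy all 10 p53-ko libraries, at 5.42 CPM or more, lie above all 6 p53-wt libraries, at 0.306 CPM or less.

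Mgl2 and Clec10a, lectins of myeloid cells, had positive log2 changes that did not pass edgeR's test with the filter on low counts. Both changes depended on single libraries. Of 8 tested members of the cytokine and myeloid surface list, none was called, 4 had an unadjusted p under 0.05 and a higher level, and the list's median log2 change was 0.87, against 0.00 over all genes. Cd68, a lysosomal glycoprotein of macrophages, had 8.11 to 19.6 CPM in ICN p53-ko, 6.91 to 26.5 CPM in no-ICN p53-ko and 4.83 to 8.43 CPM in ICN p53-wt leukaemias (log2 change 0.89, SE 0.21, edgeR adjusted p 0.101). Cxcl16, a chemokine that overlaps Zmynd15 on the opposite strand, had 0.80 to 4.60 CPM in ICN p53-ko, 3.25 to 6.90 CPM in no-ICN p53-ko and 0.655 to 2.61 CPM in ICN p53-wt leukaemias (log2 change 1.16, SE 0.31, adjusted p 0.132). Clec10a, found on macrophages and dendritic cells, had 0.0909 to 1.35 CPM in ICN p53-ko, 0.229 to 1.08 CPM in no-ICN p53-ko and 0.113 to 0.409 CPM in ICN p53-wt leukaemias (log2 change 2.09, SE 0.60, adjusted p 0.142). Without ICN Vav p53-ko replicate 2 its log2 change was 1.35 (adjusted p 0.459). Its relative Mgl2 had a log2 change of 3.21 (SE 0.95, adjusted p 0.152). Mgl2 was at 0 to 1.92 CPM in ICN p53-ko, 0.651 to 2.67 CPM in no-ICN p53-ko and 0 to 0.194 CPM in ICN p53-wt leukaemias, so the ICN groups overlapped at 0. Its log2 change was 1.08 (adjusted p 0.985) without ICN Miz1-wt p53-ko replicate 1 and 4.95 (adjusted p 0.154) without ICN Miz1-wt p53-wt replicate 1. DESeq2 called these 4 genes higher, with adjusted p of 0.00191 for Cd68, 0.00829 for Cxcl16, 0.0179 for Clec10a and 0.00925 for Mgl2. Without the count filter edgeR called Clec10a (2.08, SE 0.52, adjusted p 0.0023) and Mgl2 (3.20, SE 0.55, adjusted p 6.1e-07). That fit called 5.28% of all genes.

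Markers of macrophages and dendritic cells had a like median. Of 15 tested markers on that list of 16, none was called, 9 had an unadjusted p under 0.05 and a higher level, and the median log2 change was 0.83. Their summed level was 238 to 1571 CPM in ICN p53-ko, 129 to 326 CPM in no-ICN p53-ko and 148 to 294 CPM in ICN p53-wt leukaemias, with Vsig4 the 1 marker at 0 in a library. The no-ICN p53-ko sums thus overlapped those of ICN p53-wt, while Cxcl16 and Mgl2 were higher in all 4 no-ICN p53-ko libraries than in all 6 ICN p53-wt libraries; these groups differ in both ICN and p53 status. The highest sums, 1571 and 1137 CPM, belonged to the Lck p53-ko mice, where Cd68 reached 19.6 and 16.8 CPM. All 10 neutrophil markers also had positive log2 changes (median 3.09), with sums of 53.4 to 9179 CPM in ICN p53-ko and 55.4 to 906 CPM in ICN p53-wt leukaemias. The log2 change of Cd68 was 0.98 in Miz1 wt, 1.68 in Lck and 0.00 in Vav leukaemias, and that of Cxcl16 was 1.73 in Miz1 wt, 2.49 in Lck and -0.74 in Vav leukaemias. With the mean log2 CPM of the macrophage list as a covariate, the change of Cd68 was 0.19 (SE 0.46) and that of Clec10a 0.64 (SE 1.43). That fit called no gene for p53 status and raised the median SE of the members from 0.24 to 0.59. Trp53 itself was at -2.70 (edgeR adjusted p 0.971) in it, so the fit cannot decide whether these changes follow the myeloid markers. In bulk RNA, more cells of a type and more RNA per cell cannot be told apart. The part of the myeloid markers in these values was not tested further.

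**Figure D5:**
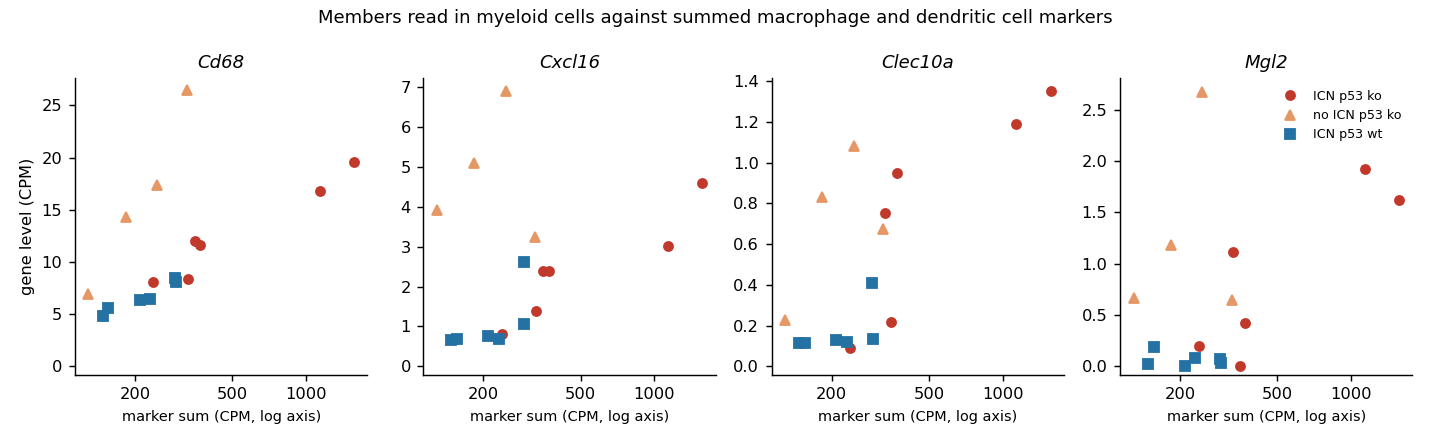
Level in CPM (y axes) of 4 members that are expressed in myeloid cells against the summed level of 16 macrophage and dendritic cell markers in each library (x axis, CPM, log axis), by group. The 2 libraries with the highest sums, 1137 and 1571 CPM, are ICN p53-ko Lck mice with Cd68 at 16.8 and 19.6 CPM, and the ICN p53-wt libraries lie at sums of 148 to 294 CPM.

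No member of the other role lists passed edgeR's test for p53 status with the filter on low counts. Of 5 tested members of the cell division list, Aurkb, the mitotic kinase of the chromosomal passenger complex, had an unadjusted p under 0.05, with 146 to 182 CPM in ICN p53-ko and 95.9 to 151 CPM in ICN p53-wt leukaemias (log2 change 0.44, SE 0.14, edgeR adjusted p 0.183). All 5 had positive log2 changes, from 0.02 to 0.44. The 3 tested genes of the ubiquitin and proteasome list also had positive changes, Psmb6 as above, the ubiquitin ligase Rnf167 at 0.51 (SE 0.14) and Rnf227 at 0.23 (SE 0.52). Rnf167 overlaps Slc25a11 on the opposite strand, and without a known strand setting reads of such pairs cannot be told apart. This holds for 31 of the 105 members.

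Among 8 tested members of the membrane traffic list, Arrb2, the adaptor that shuts off G protein-coupled receptors, had 78.7 to 132 CPM in ICN p53-ko and 56.9 to 83.1 CPM in ICN p53-wt leukaemias (log2 change 0.45, SE 0.12, edgeR adjusted p 0.137). Outside the role lists, Gabarap, which attaches to autophagosome membranes, had a log2 change of 0.36 (SE 0.13) and Acap1, an endosomal GTPase regulator, 0.39 (SE 0.19). Among 9 transcription and chromatin genes, Kdm6b, the histone H3 lysine demethylase also called Jmjd3, had -0.74 (SE 0.33, adjusted p 0.307), with 9.42 to 26.1 CPM in ICN p53-ko and 15.6 to 37.3 CPM in ICN p53-wt leukaemias. Of the 5 tested lipoxygenases none had an unadjusted p under 0.05. Alox15 had 0.673 to 32.4 CPM in ICN p53-ko and 1.34 to 2.06 CPM in ICN p53-wt leukaemias (log2 change 1.25, SE 0.68, and 0.63 without ICN Lck p53-ko replicate 1). Without the count filter edgeR called Kdm6b (-0.76, SE 0.25, adjusted p 0.041) and Alox15 (1.24, SE 0.39, adjusted p 0.0355). That fit called 5.28% of all genes. Eno3, the muscle enolase, had 0.61 (SE 0.23) and Chrnb1, a subunit of the muscle acetylcholine receptor, -0.93 (SE 0.36).

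Within single Miz1 states no member was called, against a background of 0.00572% of genes in Miz1 wt, 0.00572% in Lck, 0.0172% in Vav and 0.0343% in both deltaPOZ groups averaged. At an unadjusted p under 0.05 there were 4 members in Miz1 wt (4.6%, background 5.52%) and 9 in Lck (10.3%, background 10.7%). There were 6 in Vav (6.9%, background 3.06%) and 13 over both deltaPOZ groups (14.9%, background 11.6%). DESeq2 called 0 of 82 members in Miz1 wt (background 0.874%), 6 of 82 in Lck (7.32%, background 3.71%), 2 of 87 in Vav (2.3%, background 0.36%) and 5 of 82 over both deltaPOZ groups (6.1%, background 3.34%). The difference of the p53 effect between deltaPOZ and Miz1-wt leukaemias was called for no member and no gene (0.0%), with 1 member and 454 genes at an unadjusted p under 0.05 and, by DESeq2, 0 members and 27 genes (0.14%).

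More members were called for ICN status, with both sides p53 ko, than for p53 status. The same held for all genes, with 24.0% called for ICN and 0.195% for p53 status. Between ICN and no-ICN p53-ko leukaemias, averaged over Miz1 wt and Vav, 17 of 87 members were called (19.5%), 8 higher and 9 lower, against a background of 24.0% of genes (12.9% higher and 11.1% lower). The median log2 change of the members was -0.30, against -0.18 over the other protein-coding genes of chromosome 11 and -0.02 over all genes. Slc2a4 had 37.5, 19.5, 6.95 and 25 CPM in the 4 ICN libraries and 0.025, 0.0574, 0.0229 and 0.139 CPM in the 4 no-ICN libraries (log2 change 8.38, SE 0.84, edgeR adjusted p 8.8e-05). Tnk1, a non-receptor tyrosine kinase that overlaps Plscr3, had 0.671, 1.53, 1.07 and 2.28 CPM with ICN and 0, 0.0144, 0.0229 and 0.0174 CPM without (at most 1 count per library without ICN, adjusted p 0.000463). Tm4sf5, a tetraspanin relative, was also higher (3.38, SE 0.62), as was Arrb2 (0.75, SE 0.15). Dlg4, the scaffold protein PSD-95 of synapses, had 1.31, 1.07, 1.15 and 3.28 CPM with ICN and 34.2, 26.3, 6.11 and 42.8 CPM without, and was lower (-4.07, SE 0.69). Ybx2 was not called in this comparison (-0.52, SE 0.76, adjusted p 0.657). These libraries differ in markers of other cells as well. In this comparison all 10 neutrophil markers, 8 of 9 B cell markers, 6 of 7 erythroid markers and 4 of 15 macrophage and dendritic cell markers were called higher. Markers at 0 in at least 1 library included Mpo, Elane, Ly6g, Ngp, Ltf and Camp of neutrophils, Fcer2a of B cells and Vsig4 of macrophages. Marker sums over the 6 ICN p53-ko and the 4 no-ICN p53-ko libraries were 53.4 to 9179 against 0.826 to 1.65 CPM for neutrophils, 12.8 to 157 against 4.20 to 17.9 CPM for B cells and 2622 to 8497 against 355 to 1049 CPM for erythroid cells. Their part in these calls was not tested. The count was 9 without either ICN Vav p53-ko library.

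DeltaPOZ against Miz1 wt, averaged over ICN p53-ko, no-ICN p53-ko and ICN p53-wt leukaemias, called no member (background 0.0172%), with 3 members (3.45%) at an unadjusted p under 0.05 against 4.92% of all genes, and 0 by DESeq2 (background 0.719%). Of 24 p53 target genes, tested for comparison, none was called between ICN p53-ko and ICN p53-wt, 4 had a higher and 3 a lower level at an unadjusted p under 0.05, and the median log2 change was -0.13. Chromosome 11 as a whole held 6 of the 34 called genes (0.412% of 1455 tested, against 0.175% of the 16015 genes elsewhere): Trp53 and Ybx2 inside the window, and Pdlim4, Gm6685, Gm12070 and Hmgb1-ps3 outside it. The first count includes the targeted gene. Of the protein-coding genes of chromosome 11 outside the window, 2 of 1123 were called, against 19 of 13080 on the other chromosomes.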

How the data were processed

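RNA from 16 mice was read as raw counts per Ensembl gene, deposited by the authors as 1 table per mouse. Per the labels' protocols, libraries were made with a stranded mRNA kit; the submitters' processing notes name GRCm38 (mm10), HTSeq, DESeq, SAMtools and version 2.0.10 of TopHat2. The sources used here do not give the counter's strand setting. The 5 totals that name no gene were left out of library sizes: alignments that were not unique took 45.8% to 63.7% of a library, reads outside genes 14.2% to 21.5%, ambiguous reads 0.138% to 0.331%, and genes kept 20.6% to 39.6%. Names and positions came from GENCODE M21 (40254 of 41214 identifiers matched).

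Counts were tested with edgeR 4.0.16 (R 4.3.3; TMM, filterByExpr, quasi-likelihood F test, 8 group means, 17470 genes, Benjamini-Hochberg over all). Per-gene spread rests on 8 residual degrees of freedom. On simulated counts for 16930 genes in the averaged p53 comparison, 86.7% of 98 genes changed 4-fold and 100 of 100 changed 8-fold were called, with 9 of 16732 unchanged genes. The simulation gave every gene the same spread (dispersion 0.2082), so these shares do not hold for genes of larger spread. In the data Mgl2, fitted as 9.24-fold higher, was not called (edgeR adjusted p 0.152), while Ybx2, 14.3-fold lower, was. DESeq2 1.42.0 and 1-library-out fits were alternatives. Fitted log2 changes of genes near 0 counts depend on the prior count. Pseudogene transcripts were matched with BLAST 2.17.0.

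Named genes are members under the threshold, then those with the lowest p up to 20, the nearest to Trp53, those at the window's limits, a list of myeloid genes, and up to 5 called in each other comparison; neighbours of Ybx2 and copies of members were added after values were seen. Members and lists were chosen with earlier results of these data known. Each mouse is a replicate; the labels give no batch, and no 2 libraries held the same counts.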

Additional observations from a re-analysis of the deposited data

Results flagged for a closer look

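In 9 of 126 groups of libraries checked over the named genes, 1 library stood far from the rest of its group by Dixon's criterion, which chance alone meets in about 1 in 20 groups. Among ICN p53-ko libraries, Eif4a1 was at 435 CPM in Miz1-wt replicate 1 (others 773 to 992 CPM) and Dlg4 at 3.28 CPM in Vav replicate 2 (others 0.856 to 1.31 CPM). Among no-ICN p53-ko libraries, Miz1-wt replicate 1 was low for Aurkb, at 125 CPM (others 185 to 200 CPM), and for Eif5a, at 669 CPM (others 769 to 784 CPM). Among ICN p53-wt libraries, Vav replicate 2 was high for Cxcl16, at 2.61 CPM (others 0.655 to 1.07 CPM), high for Clec10a, at 0.409 CPM (others 0.113 to 0.134 CPM), and low for Dlg4, at 0.563 CPM (others 1.80 to 3.45 CPM). Psmb6 was low in ICN p53-wt Lck replicate 1, at 150 CPM (others 164 to 173 CPM), and Eno3 high in ICN p53-wt Miz1-wt replicate 1, at 12.6 CPM (others 6.86 to 8.18 CPM).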

How the results depend on the processing

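The members called between ICN p53-ko and ICN p53-wt leukaemias numbered 1 with TMM or DESeq2's size factors, with an additive model, at an adjusted p under 0.1 and without members that overlap an opposite-strand gene. They numbered 7 without a count filter, 2 with the ICN libraries alone (2.35%, background 0.887%), 8 with DESeq2 (9.76%, background 6.6%) and 14 at an unadjusted p. Called genes that are not members numbered 33, with Trp53 among them. They numbered 1581, 147 and 1072 without a filter, with ICN libraries alone and with DESeq2. Without a filter the 7 members were 6.67% of 105, against 5.28% of all genes; members called were then 1 in Miz1 wt (0.952%, all genes 2.0%), 5 in Lck (4.76%, 3.67%), 3 in Vav (2.86%, 1.11%), 6 in deltaPOZ (5.71%, 3.68%), 1 for the difference (0.952%, 1.26%) and 2 for deltaPOZ against Miz1 wt (1.9%, 1.67%). With DESeq2 they were 6 in Lck (7.32%, 3.71%), 2 in Vav (2.3%, 0.36%) and 5 in deltaPOZ (6.1%, 3.34%). Over the 1-library-out fits the ranges were 0 to 1 members and 2 to 131 other genes for p53 status, 9 to 24 members for ICN, 0 to 1 for deltaPOZ, and -0.037 to 0.11 for the members' median. The macrophage covariate raised the median SE of the members to 0.59, against 0.24, and called 0 members and 0 other genes for p53 status and 2 members for ICN. The members' median was then -0.41, against -0.01 over all genes, Ybx2 was at -5.59 (adjusted p 0.971) and Eif5al3-ps at 5.27 (adjusted p 0.0605). Under it these log2 changes reversed: 2810408A11Rik 0.026, Gabarap -0.23, Acap1 -0.41, Tnfsf13 -0.47, Alox15 -1.69, Dnah2 -1.22, Atp1b2 -1.46, Fxr2 -0.27, Mpdu1 0.13, Scimp -1.15, Tnfsf12 -1.06, Slc2a4 -1.95, Tnk1 -2.31, Wrap53 -0.12 and Gps2 -0.26; the cause was not tested. Changes near 0 also crossed it in 1-library-out fits: Pfas -0.21 to 0.17, Eif5a -0.14 to 0.073, Tnk1 -0.12 to 0.56, Gp1ba -1.06 to 0.20, Senp3 -0.12 to 0.051, Ctc1 -0.032 to 0.27, Fxr2 -0.040 to 0.13, Dnah2 -0.028 to 0.81 and Eif4a1 -0.32 to 0.039. No paired analysis was possible because the titles carry animal numbers and no replicate numbers shared between groups.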
